A study of Mus musculus with 4 samples.

Results

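Regulators of G protein signaling (RGS) were examined in 10 genes, Rgs1, Rgs2, Rgs3, Rgs5, Rgs10, Rgs13, Rgs14, Rgs16, Rgs19 and Rgs21, out of 48709 genes listed for the series. The members were taken by gene symbol, with earlier results of these data known, and each was found. RNA-Seq had been performed on EGFP-positive and Tomato-positive cells sorted from the trachea and the stomach of C57BL/6 Tas2r143-CreERT2;Rosa26flox-mT-stop-flox-mG mice. All 4 groups came from adult mice that carried both transgenes and had received tamoxifen for 5 days, and were analysed 5 days after the last injection, while their exact age is not given in the labels or methods. The Tas2r143 promoter on a bacterial artificial chromosome drove CreERT2 in these mice, so cells with activity of that transgene, and their progeny, exchanged membrane Tomato for membrane EGFP. The mice belonged to 1 of the transgenic lines. EGFP-positive cells were sorted without regard to the epithelial surface protein EpCAM, whereas Tomato-positive cells had to be EpCAM-positive and EGFP-negative. Each library pooled the sorted cells of 3 mice, so none of the differences below has a replicate check.

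The levels are normalized counts, treated here as reads per gene rescaled with a single factor per library and rounded. Summed over all genes they came to between 9.98 and 15.43 M (M, 1e6) per library, which corresponded to an estimated 6.2 to 18.9 M reads, with the tracheal EGFP library at the lower end. The sample titles and the tissue fields name opposite tissues, and the titles were followed. Cyp2f2, a gene of airway club cells, stood at 337775 in the Tomato library titled trachea and at 69 in the one titled stomach, and Pgc, a gene of gastric chief cells, at 2 and 992416. Of 15 tuft cell markers, 14 passed the size rule given below as higher in tracheal EGFP-positive cells and 15 in gastric ones, with median log2 ratios of 4.72 and 4.27. Immunoglobulin genes and Jchain took 12.87% of the stomach EGFP library and between 0.02% and 0.55% of the other libraries. In sorted populations of this kind, fewer cells of a type and less RNA per cell cannot be told apart.

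Heterotrimeric G proteins are switched on when a receptor loads the alpha subunit with GTP, and they switch off when the subunit hydrolyses it. RGS proteins bind the active alpha subunit and speed that hydrolysis, which shortens the signal. They are grouped by sequence into the R4 subfamily (Rgs1, Rgs2, Rgs3, Rgs5, Rgs13, Rgs16 and Rgs21 among the genes studied here), the R12 subfamily (Rgs10 and Rgs14), the RZ subfamily (Rgs19) and the R7 subfamily, which pairs with Gnb5. Tuft cells of the airways and the gut are chemosensory epithelial cells that use parts of the taste cascade, in which a receptor acts through the alpha subunit gustducin (Gnat3), phospholipase C and the channel Trpm5.

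Of the 10 genes, 6 lie on chromosome 1, and the stretches before the start sites of Rgs2, Rgs13 and Rgs21 are shown. They were picked by level, since Rgs2 and Rgs13 were high in EGFP-positive cells of both tissues and Rgs21 in tracheal ones only. Each run holds the 250 bases before the start site from RefSeq (assembly GRCm38.p6), written 5′ to 3′ on the minus strand, on which all 3 genes lie. Capitals mark matches to the motifs searched. The windows are chr1:144004150-144004399 for Rgs2, chr1:144177373-144177622 for Rgs13 and chr1:144567668-144567917 for Rgs21.
Rgs2: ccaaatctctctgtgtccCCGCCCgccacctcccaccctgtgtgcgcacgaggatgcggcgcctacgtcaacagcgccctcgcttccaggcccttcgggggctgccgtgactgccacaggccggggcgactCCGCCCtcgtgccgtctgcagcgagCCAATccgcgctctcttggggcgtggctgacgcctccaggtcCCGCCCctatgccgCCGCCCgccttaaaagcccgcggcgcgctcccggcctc
Rgs13: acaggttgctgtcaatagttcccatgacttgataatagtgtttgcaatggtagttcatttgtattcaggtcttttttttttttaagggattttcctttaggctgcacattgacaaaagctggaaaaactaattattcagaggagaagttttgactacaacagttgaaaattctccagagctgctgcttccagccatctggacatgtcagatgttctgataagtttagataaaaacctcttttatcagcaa
Rgs21: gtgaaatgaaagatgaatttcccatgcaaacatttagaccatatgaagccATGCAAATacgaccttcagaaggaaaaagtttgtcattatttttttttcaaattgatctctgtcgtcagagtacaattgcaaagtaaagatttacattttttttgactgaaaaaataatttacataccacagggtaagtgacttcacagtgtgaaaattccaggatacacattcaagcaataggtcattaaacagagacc

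Motifs were searched on both strands, chosen with the levels known. These were the GC box (GGGCGG), the CCAAT box (CCAAT), the TATA box (TATAAA), the cyclic AMP response element (TGACGTCA), the AP-1 site (TGANTCA) and the octamer of POU-domain factors (ATGCAAAT). The Rgs2 stretch held 4 GC boxes and 1 CCAAT box and had a GC content of 72.4%, against a median of 52.4% over all 32817 promoters. The Rgs21 stretch held 1 octamer that began 200 bases before the start site and had a GC content of 32.8%. None of these letters stood in the Rgs13 window, whose GC content was 36.0%. Of all promoters of the same length, 32.7% held a GC box, 33.8% a CCAAT box, 12.4% a TATA box, 6.75% an AP-1 site, 1.55% a cyclic AMP response element and 1.60% an octamer. Matches in the 3 windows did not overlap each other. Of the 10 genes, 8 were matched in the promoter table, and Rgs1 and Rgs14 were not. GC boxes also stood before Rgs10 (GC content 76.4%), which was lower in EGFP-positive cells of both tissues. They stood, with a CCAAT box, before Rgs16 (66.4%), which reached at most 3 normalized counts. Some entries of Rgs3 and Rgs19 held a GC box too. A link between these motifs and the levels was not tested.

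To ask which RGS genes differ between the EGFP and Tomato sorts, the EGFP library of each tissue was compared with its Tomato library. The comparison was made on the log2 scale after 1 was added to both levels. Only the Tomato sort was gated on EpCAM, so it contrasts sorts rather than epithelial cell types. Genes counted as higher or lower when they differed by 4-fold or more (a log2 ratio of at least 2 or at most -2) and when the larger of both levels was 50 normalized counts or more. In the trachea 8 of the 10 genes reached the minimum. Rgs2, Rgs13, Rgs14 and Rgs21 were higher in EGFP-positive cells and Rgs1 and Rgs10 were lower, which made 4 and 2 genes against 25.2% higher and 32.4% lower among the 10523 genes at the minimum. In the stomach 8 genes reached the minimum as well. Rgs2, Rgs13 and Rgs14 were higher and Rgs1, Rgs5 and Rgs10 lower, 3 genes each, against 14.8% and 22.4% of 11094 genes. The median log2 ratio of the members at the minimum was 3.12 in the trachea and -0.13 in the stomach, beside -0.32 and -0.15 over all genes at the minimum. Both directions therefore occurred within the family. Of the 7 members at the minimum in both tissues, 3 (Rgs2, Rgs13 and Rgs14) were higher in both and 2 (Rgs1 and Rgs10) lower in both, beside 5.14% and 9.62% of the 8594 genes at the minimum in both tissues.

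**Figure D1:**
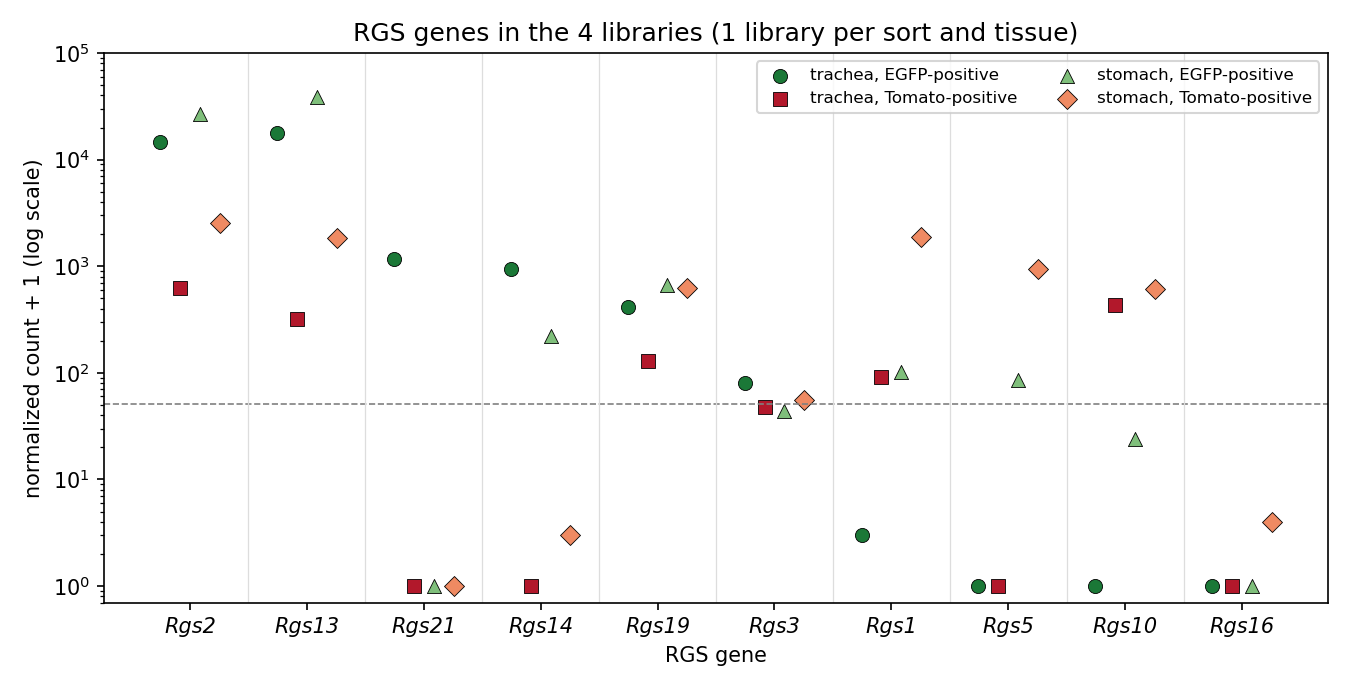
Normalized count plus 1 (log axis) of the 10 RGS genes in the 4 libraries, with 1 point per library, no error bars because each group is 1 library, and a dashed line at the minimum of 50. The points of Rgs2 and Rgs13 for EGFP-positive cells of both tissues lie between 14545 and 38751, above their Tomato points at 322 to 2520, whereas Rgs21 is above 0 in the tracheal EGFP library only.

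Rgs13 encodes a short R4 protein known from germinal centre B cells, mast cells and tuft cells, and it had the highest normalized counts of the 10 genes in both EGFP libraries. It stood at 17643 in tracheal EGFP-positive cells, 322 in tracheal Tomato-positive cells, 38751 in gastric EGFP-positive cells and 1852 in gastric Tomato-positive cells. Both EGFP libraries were thus above both Tomato libraries. The ratio of EGFP to Tomato was 54.8 in the trachea (95% interval 49.6 to 60.7) and 20.9 in the stomach (20.1 to 21.8). Here and below, intervals are exact binomial intervals on the estimated reads and cover counting error only, not the spread between mice or libraries, and the cDNA was amplified by PCR without molecular identifiers.

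Rgs2, also of the R4 subfamily, is known for its preference for Gq and for restraining adenylyl cyclase. Its normalized counts were 14545 and 623 in tracheal EGFP-positive and Tomato-positive cells, and 26986 and 2520 in those of the stomach. As for Rgs13, both EGFP libraries lay above both Tomato libraries. The EGFP level was 23.4 times the Tomato level in the trachea (21.7 to 25.2) and 10.7 times in the stomach (10.3 to 11.1). Rgs2 is also known as a gene that responds quickly to stimuli. The 10 genes of a cell stress and dissociation list, all above 0 in every library, summed to 39343 in EGFP-positive and 142982 in Tomato-positive cells of the trachea and to 4396 and 33779 in those of the stomach. The part of cell stress in the levels of Rgs2 was not tested.

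Rgs14, an R12 protein that holds an RGS domain, Ras-binding domains and a GoLoco motif that binds inactive alpha subunits, was at 931 and 0 in tracheal EGFP-positive and Tomato-positive cells. In the stomach it was at 219 and 2. The Tomato libraries held it below the limit of 3 reads, which equals 2.43 normalized counts in the tracheal and 2.45 in the gastric Tomato library. The tracheal EGFP level was 384 times the Tomato level taken at that limit (lower end 310.9). The gastric ratio was 110 (36.9 to 1115) on an estimated 2 reads in the Tomato library.

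Rgs13 and Rgs14 are also expressed by lymphocytes, and the EGFP sort had no EpCAM gate. A list of 9 B and plasma cell genes summed to 30723, 1547, 1395571 and 69511 in the EGFP and Tomato libraries of the trachea and the EGFP and Tomato libraries of the stomach, with 4, 4, 1 and 2 of its genes at 0. The B cell gene Ms4a1 was at 0 in all libraries. Cd79b stood at 1386, 1, 2855 and 2 in the same order of libraries, whereas Ighm, at 2, 580, 40534 and 242, was lower in EGFP-positive cells of the trachea and higher in those of the stomach. Of 9 mast cell genes, Kit was the only one above 1 in the EGFP libraries, at 784 and 322, while Cpa3 was at 0 in both. The part of B cells in the levels of Rgs13 and Rgs14 was not tested.

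Rgs21 is a very short R4 protein known from taste bud cells, where it acts on the taste cascade. It was at 1167 in EGFP-positive cells of the trachea and at 0 in the other 3 libraries. The tracheal EGFP level, an estimated 725 reads, was 481 times the tracheal Tomato level taken at the limit of 3 reads (lower end 390.2). It was 495 times the level in gastric EGFP-positive cells taken at that limit, which equals 2.36 normalized counts there (lower end 401.5). A log2 ratio of 0.00 in the stomach therefore stands for 2 libraries in which Rgs21 was not detectable at this depth. With 1 library per tissue, a difference between tissues and a difference between libraries cannot be told apart.

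Rgs10 and Rgs1 went the other way. Rgs10, a small R12 protein abundant in macrophages and microglia, was at 0 and 430 in tracheal EGFP-positive and Tomato-positive cells and at 23 and 608 in those of the stomach. The Tomato levels of both tissues thus lay above both EGFP levels. The tracheal Tomato level was 89.0 times the EGFP level taken at the limit of 4.83 normalized counts in the EGFP library (lower end 72.2). The gastric EGFP level was 26.4-fold lower than the Tomato level (18.4 to 40.1). Rgs1, an R4 protein that dampens chemokine receptor signals in lymphocytes, was at 2 and 90 in the trachea and at 101 and 1882 in the stomach, EGFP-positive cells first. The Tomato level was above the EGFP level within each tissue, but the gastric EGFP level of 101 exceeded the tracheal Tomato level of 90. The Tomato level was 45.0 times the EGFP level in the trachea (9.81 to 2222, on an estimated 1 read in the EGFP library) and 18.6 times in the stomach (15.7 to 22.5).

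Marker lists of other cell types differed between the sorts as well. In all, 9 myeloid genes summed to 863 and 36249 in tracheal EGFP-positive and Tomato-positive cells and to 1064 and 10128 in those of the stomach, with 6, 2, 7 and 0 of them at 0. Lyz2 made up most of the tracheal Tomato sum, at 35491. In both EGFP libraries the myeloid genes Csf1r, Tyrobp and Fcer1g were at 0. Ptprc, which all leukocytes share, went the other way, at 338 and 1 in the trachea and 1051 and 768 in the stomach, and made up most of the gastric EGFP sum. The 9 mast cell genes summed to 784, 509, 323 and 6020 in the same order, with 8, 5, 7 and 0 at 0, so their sum was higher in EGFP-positive cells of the trachea, where Kit alone was above 0. A list of 9 T and innate lymphoid cell genes summed to 98, 2195, 5 and 3, with 8, 5, 7 and 8 at 0, a list of 6 fibroblast genes to 478, 25749, 254 and 26105, with 3, 0, 2 and 0 at 0, and a list of 6 endothelial genes to 260, 3664, 924 and 565, with 4, 3, 2 and 0 at 0. Most of the endothelial EGFP sums came from Tek (258 and 0 in the trachea, 498 and 7 in the stomach) and gastric Emcn (410 and 161). Tek alone was called higher in each tissue. Pecam1 and Kdr were called lower in both, Emcn in the trachea and Cdh5 in the stomach (0 and 122). The part of these cell types in the levels of Rgs1 and Rgs10 was not tested.

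Rgs5, an R4 gene widely used as a pericyte marker, was at 0 in both tracheal libraries. In the stomach it stood at 85 in EGFP-positive and 937 in Tomato-positive cells, an 11.0-fold difference (9.05 to 13.6). It was thus seen in gastric libraries only. A list of 9 pericyte and smooth muscle genes summed to 210 and 1200 in tracheal EGFP-positive and Tomato-positive cells and to 281 and 3047 in those of the stomach. Of these genes 7, 4, 4 and 0 were at 0, so all 9 were above 0 in gastric Tomato-positive cells alone. Kcnj8, a defining pericyte gene, reached 11 there and was at 0 in the other libraries. Pdgfrb was at 2 and 161 in gastric EGFP-positive and Tomato-positive cells but at 121 and 11 in tracheal ones, where it was called higher in EGFP-positive cells while Rgs5 was at 0. The part of pericytes in the level of Rgs5 was not tested.

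Rgs19, an RZ protein that acts on Gi subunits, was at 415 and 127 in tracheal EGFP-positive and Tomato-positive cells and at 664 and 625 in those of the stomach. The tracheal ratio of 3.27 (2.67 to 4.02) fell short of 4-fold, and the gastric ratio was 1.06 (0.963 to 1.17). Rgs3, an R4 gene with long and short forms, had levels close together in all libraries, at 79, 47, 43 and 55 in the same order. Its ratios were 1.68 (1.13 to 2.50) in the trachea and 0.782 (0.543 to 1.15) in the stomach. Rgs16, an R4 gene known to be induced in stimulated lymphocytes, was at 0 in 3 libraries and at 3 in gastric Tomato-positive cells, so it never reached the minimum.

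**Figure D2:**
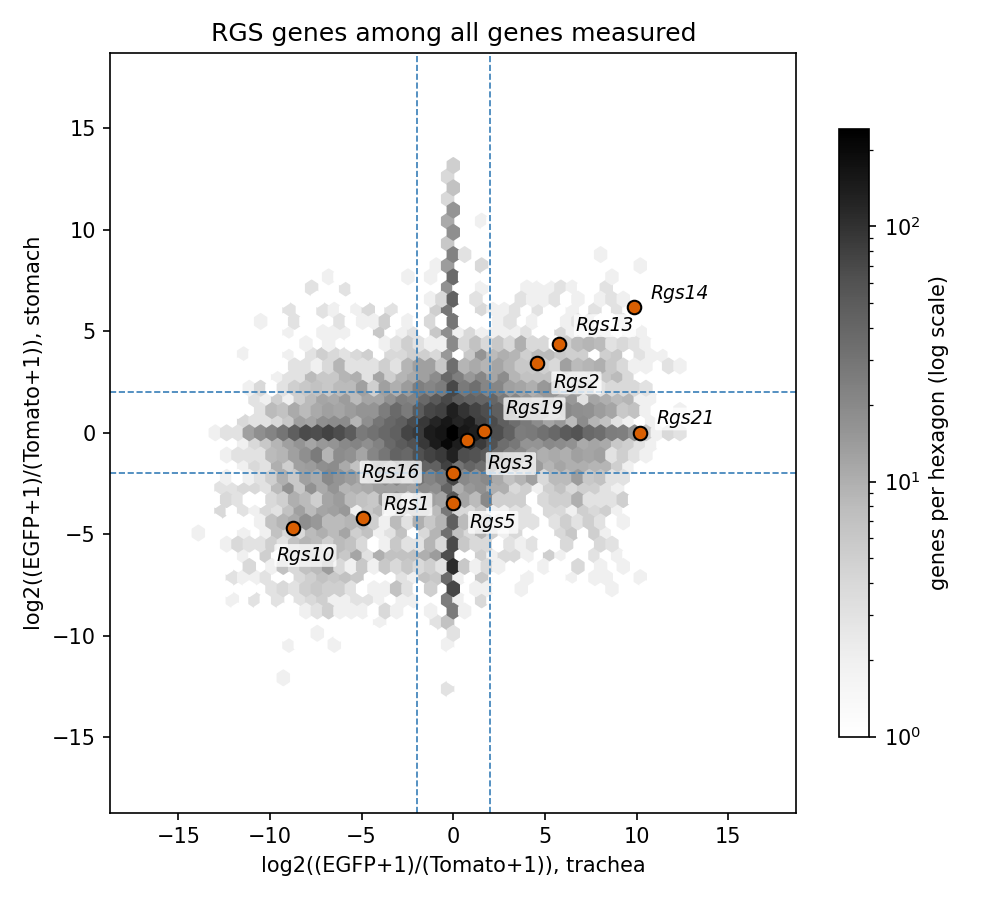
Log2((EGFP+1)/(Tomato+1)) in the trachea (horizontal axis) and the stomach (vertical axis) for the 10 RGS genes (orange points) over all genes with at least 50 normalized counts in a library (grey hexagons, darker for more genes), with dashed lines at the 4-fold limits. Rgs2, Rgs13 and Rgs14 lie beyond the limits at the upper right, Rgs1 and Rgs10 at the lower left, and Rgs21 lies at 10.19 on the tracheal axis and 0.00 on the gastric axis.

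With both tissues treated as a pair, limma was fitted to the 13023 genes at the minimum in any library, and 304 of them (2.33%) passed an adjusted p of 0.05 in either direction. Of the RGS genes, 9 were fitted and 2 passed. The log2 difference between EGFP-positive and Tomato-positive cells was 5.08 ± 0.69 (SE) for Rgs13, with an adjusted p of 1.4e-10 by limma. For Rgs2 it was 3.98 ± 0.67, with an adjusted p of 1.02e-06 by limma. In this fit limma took the spread of each gene wholly from the trend over all genes, and the libraries left 1 residual degree of freedom. That spread comes from how far the differences of both tissues lay apart, and not from replicate mice or libraries. Neither gene passed in a fit without the tissue term (limma adjusted p 0.571 for Rgs13 and 0.60 for Rgs2) or without a minimum (limma adjusted p 0.793 for both). Rgs14 had a larger difference of 8.03 but missed the threshold, with a limma adjusted p of 0.164, as did Rgs10 at -6.71 (0.174) and Rgs1 at -4.57 (0.379). The remaining limma adjusted p-values were 0.808 for Rgs21, 0.881 for Rgs19, 0.898 for Rgs5 and 0.985 for Rgs3.

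Levels were then set side by side between the tissues. In the EGFP libraries Rgs14 and Rgs21 were higher in the trachea and Rgs1 and Rgs5 higher in the stomach. These 2 and 2 genes stand beside 19.8% and 28.3% of 10337 genes. Rgs14 was 4.25 times as high in the trachea (3.67 to 4.91). Rgs13 and Rgs2 did not reach 4-fold, with gastric levels of 2.2 (2.15 to 2.24) and 1.86 (1.81 to 1.90) times the tracheal levels. In the Tomato libraries 5 genes, Rgs1, Rgs2, Rgs5, Rgs13 and Rgs19, were lower in the trachea, beside 27.9% of 11338 genes, and 0 were higher, beside 20.3%. Gastric Tomato-positive cells had 5.75 times the Rgs13 level (5.17 to 6.42), 4.92 times the Rgs19 level (4.14 to 5.88) and 4.05 times the Rgs2 level (3.74 to 4.38) of the tracheal cells. In the paper, EGFP marked most DCLK1-positive tuft cells of the trachea but a small part of those of the stomach corpus. The 15 tuft cell markers summed to 4547 in tracheal and 9989 in gastric Tomato-positive cells. Single markers differed in direction, with Dclk1 at 86 and 2049 and Pou2f3 at 300 and 105. The part of tuft cells in the Tomato levels of Rgs2 and Rgs13 was not tested.

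Levels of different genes were compared per kilobase of exon, over the 10 genes and the other 12 genes of the RGS family listed. Rgs13 ranked first and Rgs2 second among the 22 genes in both EGFP libraries and in gastric Tomato-positive cells. Together they made up 85.5% of the summed normalized counts per kilobase in EGFP-positive cells of the trachea and 97.1% in those of the stomach. Their share was 34.7% in tracheal and 49.3% in gastric Tomato-positive cells. In tracheal Tomato-positive cells Rgs10 ranked first, with 33.87%, followed by Rgs13 with 17.47% and Rgs2 with 17.19%. The R7 gene Rgs11 came next in both EGFP libraries, with 5.25% in the trachea and 1.10% in the stomach. Rgs21 took 3.94% and Rgs14 2.23% in tracheal EGFP-positive cells. Shares of this kind depend on each other, and the summed level per kilobase was itself 17690, 1114, 32660 and 3844 in tracheal EGFP-positive, tracheal Tomato-positive, gastric EGFP-positive and gastric Tomato-positive cells.

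**Figure D3:**
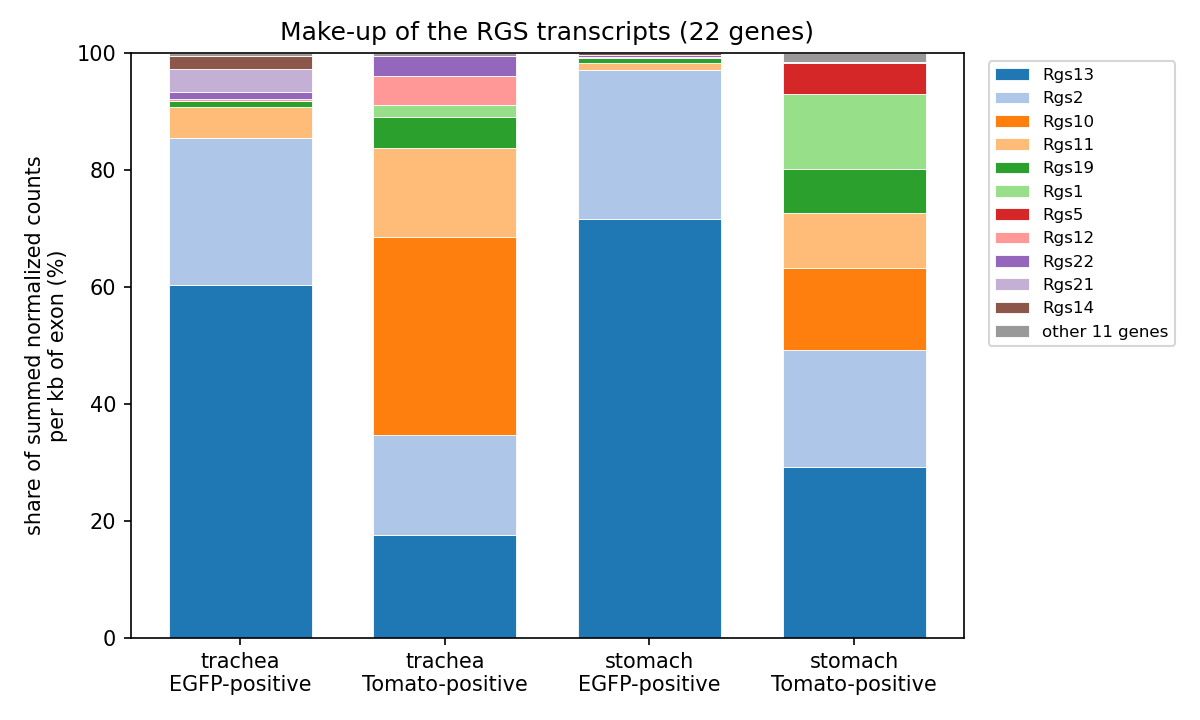
Share (%) of each RGS gene in the summed normalized counts per kilobase of exon over 22 RGS genes, with 1 stacked bar per library and the 11 genes without a color of their own pooled in grey. Rgs13 and Rgs2 fill 85.5% and 97.1% of the bars of EGFP-positive cells and 34.7% and 49.3% of the bars of Tomato-positive cells.

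A run of RGS genes stands side by side on chromosome 1. Rgs2 (chr1:143999338-144004161), Rgs13 (chr1:144138654-144177372), Rgs1 (chr1:144242296-144249242) and Rgs21 (chr1:144516648-144567667) lie with Rgs18 (chr1:144752683-144775435) on the minus strand within 776.1 kb (GRCm38, GENCODE M21). These are the only protein-coding genes annotated in that interval. The 3 other annotated genes there, 2 processed pseudogenes and 1 small nuclear RNA, reached at most 9 normalized counts. Neighbours differed in direction. Rgs13 and Rgs1 start 173.2 and 245.1 kb from the start site of Rgs2, and Rgs13 was higher and Rgs1 lower in EGFP-positive cells of both tissues. Rgs18, an R4 gene known from platelets, was at 0 in all 4 libraries. Rgs5 (chr1:169655501-169695813) lies 45.7 kb from Rgs4, which stood at 28 and 101 in gastric EGFP-positive and Tomato-positive cells and at 0 in the trachea, so both were seen in the stomach alone. Rgs16 (chr1:153740349-153745468) shares 10.1% of its exon bases with the annotated gene Gm28513, and no other member shares exon bases with another gene. The rest lie elsewhere, Rgs3 at chr4:62559847-62704001, Rgs10 at chr7:128373621-128418758, Rgs14 at chr13:55369732-55384687 and Rgs19 at chr2:181688419-181693977.

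**Figure D4:**
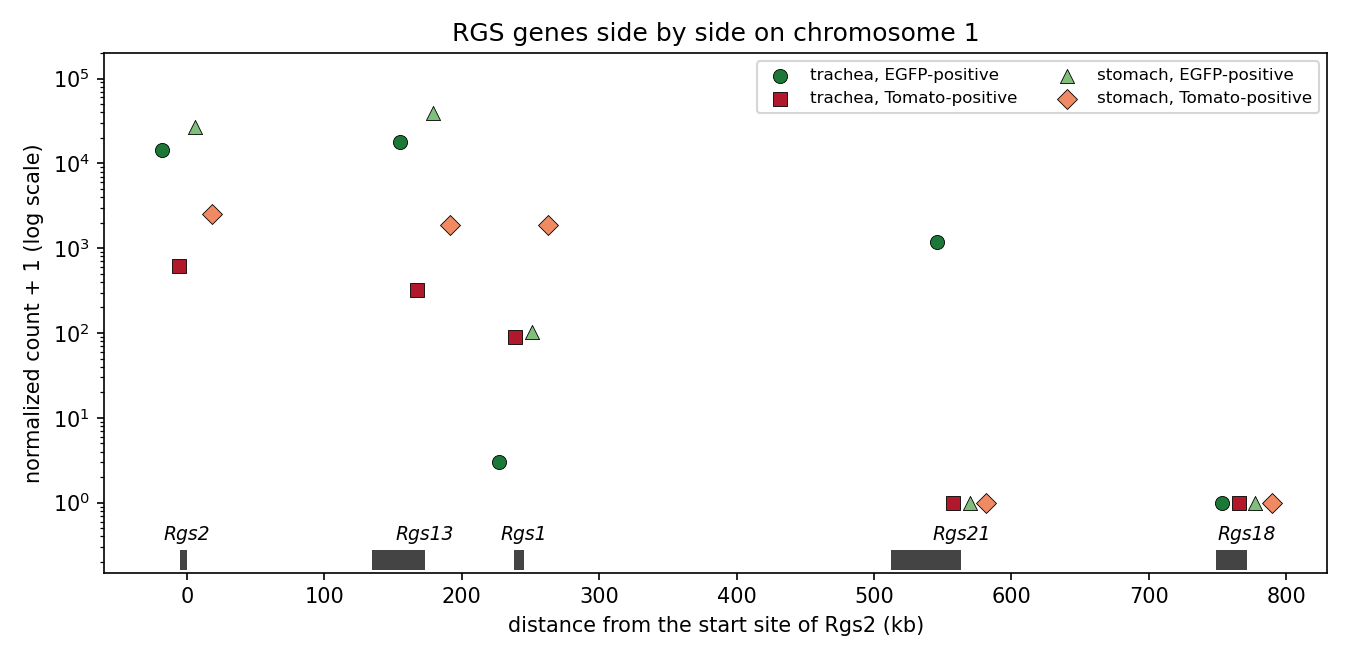
Normalized count plus 1 (log axis) of the 5 neighbouring RGS genes against the distance of their start sites from that of Rgs2 in kb, with 1 point per library, spread sideways by a few kb so that they can be told apart, and dark bars for the extent of each gene. Rgs2 and Rgs13 lie between 322 and 38751 in the 4 libraries, Rgs1 has its lowest point at 2 in tracheal EGFP-positive cells, and Rgs18 is at 0 throughout.

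Among the other 12 RGS genes, 4 reached the minimum in the trachea and 3 in the stomach. In tracheal EGFP-positive cells 3 of these were higher and 0 lower, beside 25.2% higher and 32.4% lower over all genes at the minimum. Their median log2 ratio was 2.51, beside -0.32 over all genes. Rgs22 stood at 916 and 154 (log2 ratio 2.56), Rgs11 at 1866 and 339 (2.46) and Rgs7, which like Rgs11 belongs to the R7 subfamily, at 137 and 0. In the stomach Rgs22 alone was higher, at 423 and 11, a ratio of 38.5 (23.1 to 75.4), and 0 were lower. Over all genes at the minimum 14.8% were higher and 22.4% lower in that tissue. The median there was -0.01 beside -0.15. Rgs11 was at 724 and 729 in the stomach and Rgs7 at 0 and 2. Gnb5, the partner of the R7 subfamily, was at 576 and 303 in the trachea and at 42 and 7 in the stomach. It was not called in either tissue. In the trachea its log2 ratio of 0.92 fell short of 4-fold, and in the stomach, with a log2 ratio of 2.43, it stayed under the minimum.

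The alpha subunits on which RGS proteins act were followed in a list of 16 genes. In the trachea 2 were higher and 3 lower of 11 at the minimum, with a median log2 ratio of -0.45, beside 25.2% higher and 32.4% lower over all genes. Gnat3 stood at 13865 and 524 and Gnal, the olfactory relative of Gs, at 1140 and 272. The lower genes were Gna15 (0 and 879), Gnai1 (3 and 104) and Gnaq (1013 and 11283). In the stomach 2 were higher and 1 lower of 10, with a median of 0.73, beside 14.8% and 22.4%. Gnat3 was at 3685 and 473 and Gna14, a Gq relative, at 548 and 0, while Gnao1 was at 0 and 161. Gnai2, a main partner of R4 proteins, was at 1148 and 1225 in the trachea and at 4354 and 1095 in the stomach, where its log2 ratio of 1.99 lay just inside the limit. Gna11, a subunit of the Gq class, differed less, with log2 ratios of -0.26 and 0.45.

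Other proteins that end or reshape G protein signals were found in both directions, and their counts below stand against the same shares over all genes, 25.2% higher and 32.4% lower in the trachea and 14.8% and 22.4% in the stomach. Of 8 receptor kinases and arrestins, 1 was higher (Arrb1, at 52 and 0) and 1 lower (Adrbk1, at 48 and 316) of 4 at the minimum in the trachea, where the median log2 ratio was 1.01. In the stomach 0 were higher and 1 lower of 6 (Arrb2, at 0 and 127), and the median was 0.59. Of 8 GoLoco proteins and other activators of G protein signaling, Ric8b, a chaperone of alpha subunits, was higher in the trachea (461 and 21), and Rasd1 (0 and 160) and Gpsm1 (2 and 248) were lower, of 4 at the minimum and with a median of -2.59. In the stomach Gpsm2 was higher (138 and 23) and Rasd1 lower (2 and 327) of 5, with a median of 1.0. Gpsm1 stood at 49 and 0 there (log2 ratio 5.64), the other way from the trachea but just under the minimum. Of 9 further proteins with an RGS-like domain, Akap10, an anchor of protein kinase A, was higher in both tissues, at 807 and 9 in the trachea and 425 and 41 in the stomach. Snx25 was higher in the stomach (104 and 0) and Arhgef12 lower in the trachea (18 and 223). Of that list 1 gene was higher and 1 lower of 5 in the trachea (median 0.16), and 2 were higher and 0 lower of 7 in the stomach (median -0.62).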

How the data were processed

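Gene expression was measured in 4 libraries, 1 for each sort and tissue. Reads had been trimmed (Reaper), aligned to GRCm38 (STAR 2.4.0a) and summed over the exons of each gene (featureCounts 1.4.5-p1), without those that hit multiple genes or mapped to multiple loci. The deposited values are a score, a normalized count, and were treated here as reads divided by a library factor and rounded. The origin of these factors was not given in the sources used here. A library factor shifts all log2 ratios of a tissue together. Whether reads were assigned by strand is not stated.

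Log2 ratios were formed with a pseudocount of 1. The worth of 1 read (0.786 to 1.61 normalized counts) was estimated from the spacing of low values, and reads estimated from it gave exact 95% binomial intervals and a limit of 3 reads. limma 3.58.1 (R 4.3.3) was fitted to log2(normalized count + 1) with trend and a tissue term, and p-values were adjusted by Benjamini-Hochberg over all genes fitted. Single libraries allow no other test, so calls by size carry no p-value. Scripts were tested on simulated data. Exon lengths came from merged exons of basic GENCODE M21 transcripts and promoters from RefSeq.

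The members and lists were chosen with earlier results of these data known. All 10 members are named, and genes of other lists where called by size, up to 4 per list and tissue. Rgs4, Rgs18, Gnb5, Gnai2, Gna11, other genes with ratios of opposite sign, the marker genes and the tissues' other values of called genes are named outside that rule and were chosen after their values were seen. Genes most like a member were the 3 with the smallest Euclidean distance over the 4 centred log2 values, for members called alike in both tissues. Alternatives covered the pseudocount, minimum, scaling, size rule and limma model.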

Additional observations from a re-analysis of the deposited data

Results flagged for a closer look

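Among the 10 RGS genes and the genes of the pathway lists that reached 50 normalized counts in both tissues, 12 had log2 ratios of opposite sign in the 2 tissues. The differences (trachea minus stomach) were not tested, since each sort and tissue is 1 library. Rgs3 differed by 1.09, with ratios of 0.74 in the trachea and -0.35 in the stomach, both short of 4-fold. Rgs11 differed by 2.47, with 2.46 in the trachea and -0.01 in the stomach. Gna14 differed by -9.55, at -0.45 in the trachea and 9.10 in the stomach, where it was at 0 in Tomato-positive cells. Gnaq differed by -4.31, from -3.48 to 0.83. Arrb1 differed by 6.46, from 5.73 to -0.73, and its tracheal value rests on 52 normalized counts against 0. In 7 further genes both ratios were short of 4-fold. Among alpha subunits the difference was -2.43 for Gna12, -2.08 for Gnai2, -0.71 for Gna11 and -0.69 for Gnai3. Among proteins with an RGS-like domain it was 2.26 for Snx13, -2.08 for Snx14 and 1.53 for Arhgef1.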

How the results depend on the processing

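Of the counts of called members under the alternatives, 34 stayed within 1.5 times the reported count and 3 did not. With a minimum of 500 normalized counts the comparison of the EGFP libraries between tissues called 2 RGS genes instead of 4 (Rgs14 and Rgs21), since Rgs1 and Rgs5 no longer reached the minimum. limma called 0 RGS genes and 0 of all genes without the tissue term (776 genes at an unadjusted p under 0.05) and likewise 0 without a minimum (819 genes). Scaling all libraries to the same total moved the median log2 ratio of all genes from -0.32 to 0.35 in the trachea and from -0.15 to 0.05 in the stomach, or to 0.27 with immunoglobulin genes left out of the totals. Under it Rgs19 passed 4-fold in the trachea (2.27, or 1.92 above the median of all genes, against 2.02 above it with the deposited values), and Rgs3 in the stomach stood at 0.01 with immunoglobulin genes left out. Rgs2 lost its call between the Tomato libraries under the same total and with a pseudocount of 10. A minimum of 500 also removed Rgs1 and Rgs10 from the tracheal and Rgs14 from the gastric calls. It took the genes higher in EGFP-positive cells of the trachea from 2651 of 10523 at the minimum to 1162 of 5256. In the stomach they went from 1639 of 11094 to 663 of 4574. No log2 ratio with a call changed sign. The labels give no replicate numbers, so no replicate block could be fitted beside the tissue term, and with 1 library in each group none could be left out. Levels under 3 reads, such as Rgs1 in tracheal EGFP-positive cells, are limited by depth.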

Other observations

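The genes whose levels over the 4 libraries were most like those of an RGS gene, among 13022 others, were named by distance alone, and any resemblance rests on 4 libraries. Closest to Rgs13 were Alox5, the 5-lipoxygenase of leukotriene synthesis, at a distance of 0.435 log2 units, followed by Zfp592 (0.534) and Ptpn6 (0.588), which encodes a phosphatase best known from blood cells. Alox5 stood at 11771 and 147 in tracheal EGFP-positive and Tomato-positive cells and at 18046 and 937 in those of the stomach. Ptpn6 stood at 13609 and 172 and at 21888 and 808. Zfp592 was far lower, at 32 and 0 in the trachea and 94 and 3 in the stomach.

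Closest to Rgs2 were Tssc4 (0.504), Zmynd19 (0.618) and Pik3r5 (0.672), a regulatory subunit of the phosphoinositide 3-kinase that G protein beta-gamma subunits activate. Pik3r5 was at 3240 and 74 in the trachea and 5147 and 384 in the stomach. Zmynd19 was far lower than Rgs2, at 37 and 0 in the trachea and 57 and 6 in the stomach. Rgs14 had more distant nearest genes, Kdm4a (1.057), Gm37125 (1.149) and Eml6 (1.201). Kdm4a, a histone demethylase gene, was at 1008 and 1 in the trachea and 581 and 7 in the stomach.

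Among genes that followed the Tomato libraries, Eva1a (0.308), Spc25 (0.40), a kinetochore gene, and Ugt2b34 (0.456) were closest to Rgs10. Tk1 (0.470), the thymidine kinase of dividing cells, Slco2a1 (0.568), a prostaglandin transporter, and Pafah2 (0.624) were closest to Rgs1. Tk1 was at 0 and 40 in the trachea and 36 and 941 in the stomach. Of 9 mast cell genes, 6 were lower and 0 higher in gastric EGFP-positive cells, of 7 at the minimum and beside 22.4% lower over all genes, while Kit, at 322 and 197 there, was not called. In the trachea 1 was higher (Kit, at 784 and 139) and 2 were lower of 3 at the minimum, beside 25.2% and 32.4%.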
